A study of Mus musculus with 2 samples.

Results

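The 10 long genes described here, best known from neurons, were measured in cultured white and brown adipocyte precursors of newborn mice. They are Tenm4, Opcml, Dlgap1, Kcnd2, Kcnip4, Kcnma1, Nav3, Ank3, Ptprz1 and Galnt17. They were chosen by name, as 10 of the 32285 genes listed, because they mark precursor clusters in these libraries. Their differences between clusters were therefore used in choosing them, and are given as a description without a test. Precursors of the stromal vascular fraction were taken from the subcutaneous white and the interscapular brown depot of male and female C57/BL6 pups. The sample labels give the age as postnatal day 0, and the study's methods give it as P1. The pups had no genetic change or treatment. Cells of a pool of pups were grown to confluency, and 1 library of droplet single-cell RNA-seq, which counts unique molecular identifiers (UMIs), was made per depot. The study sorted the precursors of each depot into 7 clusters. These were early white clusters wAPC 1 to wAPC 4 and brown clusters bAPC 1 to bAPC 5, committed precursors (wCAPs, bCAPs), fibro-adipogenic-progenitor-like cells (wFAPLs, bFAPLs) and differentiating wFAPLs.

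The products of these genes build contacts and electrical signals in neurons. Adhesion proteins span or coat the cell surface, scaffolds hold membrane proteins to the cytoskeleton, and potassium channels set excitability together with auxiliary subunits. The genes are among the longest of the genome, so that most of each transcript is intron, and several are also known from glia and from cells of mesenchymal origin.

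The white library held 5261 cells and the brown library 7009, with medians of 26239 and 26411 UMIs a cell. Filters on detected genes, UMIs and the mitochondrial share left 4407 and 6137 cells. Of these, 4331 and 5959 were precursors, 47 and 68 fell in glial clusters, 29 and 78 in myeloid clusters and 32 brown cells in a myogenic cluster. The glial clusters were rebuilt here by clustering the same counts. The study's cell type labels were at hand for only 20 white and 22 brown cells of these clusters, and all of them were labelled glial. No other cell at hand bore the study's glial label, and these are not the study's full glial counts. The libraries shared 9 cell barcodes. Cluster labels were at hand for 1999 precursors of each depot. With 1 library per depot no difference could be tested. Levels are counts of UMIs per 1000000 UMIs of the summed cells (CPM), intervals are at 95% and cover counting error only, and a difference was counted from 2-fold with at least 10 CPM on either side. White and brown cells cannot be told apart from their libraries.

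In GENCODE annotation of GRCm38 the members spanned 177 to 1135 kb, with a median of 732 kb against 12.3 kb for all genes. Tenm4 (ENSMUSG00000048078) lay on the forward strand at chr7:96171246-96911093. Opcml (ENSMUSG00000062257) lay on the forward strand at chr9:27790775-28925410. Dlgap1 (ENSMUSG00000003279) lay on the forward strand at chr17:69969073-70821413. Kcnd2 (ENSMUSG00000060882) lay on the forward strand at chr6:21215503-21729805. Kcnip4 (ENSMUSG00000029088) lay on the reverse strand at chr5:48389502-49524907. Nav3 (ENSMUSG00000020181) lay on the reverse strand at chr10:109681259-110456204. Ank3 (ENSMUSG00000069601) lay on the forward strand at chr10:69398773-70027438. Ptprz1 (ENSMUSG00000068748) lay on the forward strand at chr6:22875502-23052916. Galnt17 (ENSMUSG00000034040) lay on the reverse strand at chr5:130872082-131308497. Kcnma1 (ENSMUSG00000063142) lay on the reverse strand at chr14:23289431-24014491. In all, 8 of the 10 spanned at least 500 kb, and Ptprz1 was the shortest. Exons made up 0.319% (Kcnip4) to 8.03% (Ptprz1) of the span. Opcml overlapped Gm15606, and Galnt17 overlapped Gm43166, on the same strand, so reads there could belong to either gene. Tenm4, Opcml, Dlgap1, Kcnip4 and Kcnma1 had genes on the opposite strand within their span. No gene overlapped Kcnd2, Nav3, Ank3 or Ptprz1. Per 100 kb of span, the level in white precursors ran from 3.34 CPM for Kcnma1 to 62.8 CPM for Galnt17, and in brown precursors from 0.758 CPM for Kcnip4 to 39.6 CPM for Galnt17.

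Promoter windows, 250 bases before to 50 after the start in RefSeq on GRCm38.p6, were listed for 8 of the 10 members, with 11 windows in all. These windows differed widely in CpG dinucleotides, from 6 in a Tenm4 window to 36 in that of Kcnma1, where the median promoter of 32841 held 7. A GC box, GGGCGG on either strand, was found in 3 of the 11 windows (Kcnd2, Ptprz1, Kcnma1) and in 35.7% of all promoters. TATAAA and TTCAGCACC, a part of the RE1 site, searched on both strands, were found in none of the 11, and in 13.6% and 0.372% of all promoters. CACGTG was found in 1 Dlgap1 window and in 7.15% of all. Shown are 3 members with a single window and unlike patterns among the precursors: Opcml was higher in wCAPs than in wFAPLs, Kcnma1 was lower, and Ptprz1 was high in glial cells. Capitals mark GC boxes.
Opcml promoter, chr9:27791049-27791348, forward strand: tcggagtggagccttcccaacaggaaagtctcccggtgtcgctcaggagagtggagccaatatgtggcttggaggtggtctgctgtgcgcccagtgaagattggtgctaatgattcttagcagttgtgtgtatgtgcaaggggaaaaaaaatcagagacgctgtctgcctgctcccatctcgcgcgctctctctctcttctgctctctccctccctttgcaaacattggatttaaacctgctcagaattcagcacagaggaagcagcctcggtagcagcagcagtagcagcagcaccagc
Kcnma1 promoter, chr14:24004156-24004455, reverse strand: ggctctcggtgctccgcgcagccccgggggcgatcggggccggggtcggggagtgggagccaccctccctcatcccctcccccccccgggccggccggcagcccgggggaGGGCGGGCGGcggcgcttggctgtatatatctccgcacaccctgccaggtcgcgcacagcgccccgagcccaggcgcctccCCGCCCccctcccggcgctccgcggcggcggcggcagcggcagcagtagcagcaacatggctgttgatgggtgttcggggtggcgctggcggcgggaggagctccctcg
Ptprz1 promoter, chr6:22875252-22875551, forward strand: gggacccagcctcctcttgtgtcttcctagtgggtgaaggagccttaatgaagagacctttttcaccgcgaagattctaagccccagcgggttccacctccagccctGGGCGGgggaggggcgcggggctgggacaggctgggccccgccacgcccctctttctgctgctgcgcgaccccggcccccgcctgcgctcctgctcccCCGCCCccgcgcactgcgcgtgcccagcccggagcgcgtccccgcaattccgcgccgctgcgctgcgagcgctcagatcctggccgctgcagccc

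Across the clusters of each depot, the members did not share 1 order. In white cells Opcml, Kcnd2, Kcnip4, Ank3 and Galnt17 were highest in wAPC 2, Tenm4 and Dlgap1 in wCAPs, Nav3 in wAPC 4, Kcnma1 in wFAPLs and Ptprz1 in differentiating wFAPLs. In brown cells Tenm4, Dlgap1, Kcnd2 and Nav3 were highest in bAPC 1, Opcml, Kcnip4, Ank3 and Galnt17 in bAPC 5, Ptprz1 in bAPC 4 and Kcnma1 in bFAPLs. With labels carried over from the labelled cells to all filtered precursors, the highest brown cluster was bAPC 1 for Opcml and Ank3 and bAPC 5 for Kcnma1. Nav3 was highest in bAPC 3 when only G1 cells were taken, and in wCAPs after thinning each cell to 10000 UMIs or leaving out the cell with the most UMIs. Of 70 white ratios of a member in a cluster to the other labelled cells, 9 were at least 2-fold higher. Of 60 brown ratios with enough UMIs, 9 were as well. Over all genes 2.24% of white and 0.893% of brown ratios were, and over genes of at least 500 kb 8.29% and 6.53%. The members were chosen for such ratios.

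**Figure D1:**
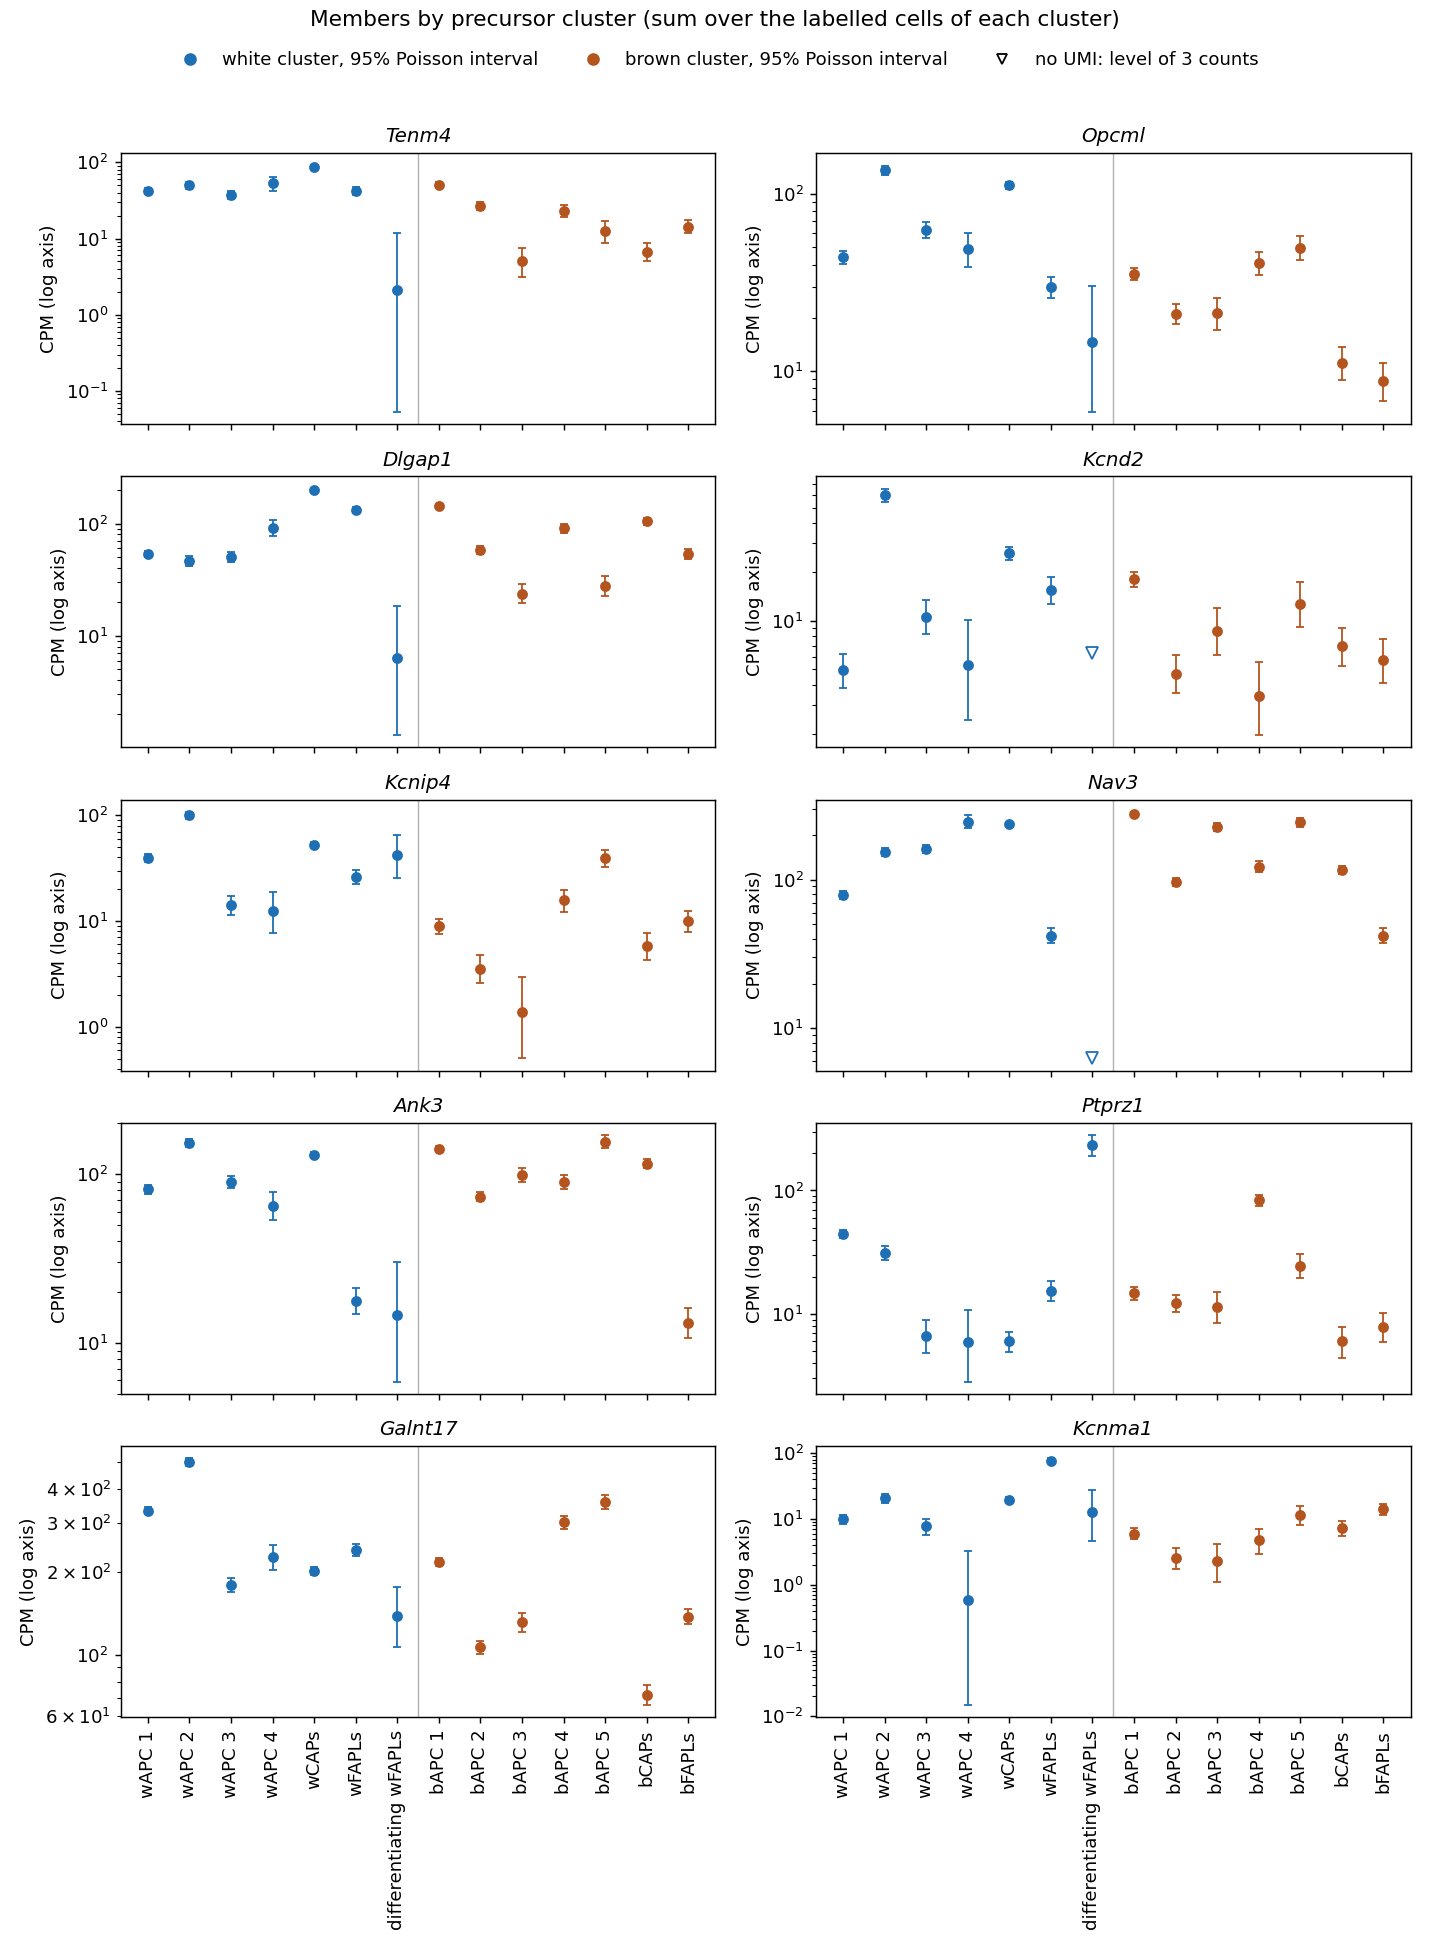
Level of each member in the 14 precursor clusters, in CPM on log axes that differ between panels, as the sum over the labelled cells of a cluster with its 95% Poisson interval. Ank3 and Nav3 drop in wFAPLs and bFAPLs, Kcnma1 is highest there, and Ptprz1 is highest in differentiating wFAPLs and bAPC 4.

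The adhesion genes Tenm4 and Opcml were both higher in white than in brown cells, but ranked the clusters differently. Tenm4 encodes a teneurin, a large transmembrane protein that binds latrophilins on the facing cell. Its level was 86.8 CPM in wCAPs (95% interval 82.7 to 91.0), 53.0 in wAPC 4, 50.0 in wAPC 2, 42.4 in wFAPLs, 42.3 in wAPC 1, 37.2 in wAPC 3 and 2.10 in differentiating wFAPLs, which rests on 1 UMI. Below wCAPs, each white cluster down to wAPC 3 did not differ beyond counting error from the next in order, save wAPC 2 over wFAPLs. Brown bAPC 1 held 51.0 CPM of Tenm4, bAPC 2 held 26.9 and bAPC 4 held 23.2, whereas bFAPLs were at 14.3, bAPC 5 at 12.4, bCAPs at 6.70 and bAPC 3 at 5.02. Its order was thus not the same in both depots: white committed precursors held the highest level and brown ones nearly the lowest.

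Opcml encodes an immunoglobulin-domain adhesion protein of the IgLON family that is anchored to the outer membrane leaflet. It was at 136 CPM in wAPC 2 and 112 in wCAPs, against 29.8 in wFAPLs and 14.7 in differentiating wFAPLs. The brown clusters bAPC 5 (49.6 CPM), bAPC 4 (40.6) and bAPC 1 (35.3) followed each other with no difference beyond counting error from one to the next, although the intervals of bAPC 5 (42.2 to 57.9) and bAPC 1 (32.6 to 38.2) did not overlap. With the cell of most UMIs left out of each cluster, bAPC 5 was at 42.5 CPM (35.7 to 50.3) and bAPC 1 at 33.9 CPM (31.3 to 36.7), and the intervals overlapped. At the low end bCAPs (11.1) and bFAPLs (8.76) did not differ beyond counting error. The highest brown level lay below that of 3 white clusters.

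Dlgap1 encodes a scaffold of the postsynaptic density that binds the PSD-95 family. It was at 198 CPM in wCAPs and 132 in wFAPLs, and between 46.8 and 91.9 in wAPC 1 to wAPC 4. Its brown levels were 143 CPM in bAPC 1, 105 in bCAPs and 91.0 in bAPC 4, followed by bAPC 2 (58.1), bFAPLs (53.5), bAPC 5 (27.9) and bAPC 3 (23.7). The wAPC 4 level of 91.9 CPM was 53.5 CPM without 1 cell that held 67 of its 156 Dlgap1 UMIs.

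The potassium channel genes had the lowest levels per 100 kb of span. Kcnd2 encodes a pore subunit of A-type channels, and Kcnip4 a calcium-binding auxiliary subunit of the same channels. Both were highest in wAPC 2, at 59.7 CPM for Kcnd2 and 100.1 for Kcnip4, and next in wCAPs, at 26.0 and 52.9. Kcnd2 was at 4.94 CPM in wAPC 1, 5.30 in wAPC 4 and 0 UMIs in differentiating wFAPLs, where 3 counts would give 6.29 CPM. In brown cells Kcnd2 reached 18.0 CPM in bAPC 1, and Kcnip4 reached 39.0 CPM in bAPC 5. That Kcnip4 level rested largely on 1 cell with 86 of 126 UMIs, and bAPC 4, the next at 15.7 CPM, had 26 of 73 UMIs in 1 cell. With the cell of most UMIs left out of each cluster, bAPC 5 was at 12.5 CPM (8.93 to 17.0) and bAPC 4 at 10.2 CPM (7.46 to 13.5), so that bAPC 5 was still the highest but the intervals overlapped.

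Kcnma1 encodes the pore subunit of BK channels, which open with calcium and voltage. It was at 76.4 CPM in wFAPLs (70.2 to 83.1), and at most 20.5 CPM in any other white cluster, with 0.589 in wAPC 4 (1 UMI). Brown bFAPLs held 14.1 CPM and bAPC 5 held 11.5, which did not differ beyond counting error, and the other brown clusters lay between 2.28 and 7.31. Mural cell markers summed to 295 CPM in wFAPLs and 277 CPM in bFAPLs, with 7 of 7 at 10 CPM or more. They summed to 48.4 to 121 CPM in wCAPs and the wAPC clusters and 53.9 to 96.4 CPM in the other brown clusters. In differentiating wFAPLs they summed to 3047 CPM, the most of any cluster, while Kcnma1 was at 12.6 CPM from 6 UMIs. The part of mural markers in the result was not tested.

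The cytoskeletal genes Nav3 and Ank3 were lowest in FAPLs. Ank3 encodes ankyrin-G, which ties membrane proteins to spectrin. It was at 17.7 CPM in wFAPLs and 14.7 in differentiating wFAPLs, whereas wAPC 4 (64.8), wAPC 1 (81.2), wAPC 3 (89.3), wCAPs (130) and wAPC 2 (153) lay above. Brown bFAPLs held 13.1 CPM, and the next cluster, bAPC 2 (73.6), was 5.60-fold higher. Above it lay bAPC 4 (89.9), bAPC 3 (99.1), bCAPs (115), bAPC 1 (141) and bAPC 5 (155). In bAPC 2 and bAPC 3 the nuclear RNA Malat1 was at 3610 and 3169 CPM, against 6762 to 8284 CPM in the other brown clusters, and genes of at least 100 kb took 7.96% and 10.3% of UMIs, against 11.6% to 12.6%. Their part in the order of the brown clusters was not tested for any member. After each cell was thinned to 10000 UMIs, 10.5% of wFAPLs and 8.96% of bFAPLs held an Ank3 UMI, against 57.3% of wCAPs and 51.7% of bCAPs (25.4% and 21.5% of FAPLs unthinned). Of thinned myeloid cells, 1 of 29 white (3.45%) and 7 of 78 brown (8.97%) held an Ank3 UMI. The share in bFAPLs was thus no higher than that of brown myeloid cells, which had a like median depth of 26773.5 UMIs against 26415 in brown precursors.

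Nav3 encodes a neuron navigator, a protein of microtubule ends. It was at 245 CPM in wAPC 4 and 234 in wCAPs, which did not differ beyond counting error, whereas wAPC 3 (161), wAPC 2 (153), wAPC 1 (78.4) and wFAPLs (41.98) were lower, with 0 UMIs in differentiating wFAPLs. Brown bAPC 1 held 277 CPM, bAPC 5 held 243 and bAPC 3 held 224, above bAPC 4 (122), bCAPs (116), bAPC 2 (96.1) and bFAPLs (42.1). In bAPC 5, 1 cell held 150 of 783 UMIs, and the level without it was 198 CPM.

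Ptprz1 encodes a receptor tyrosine phosphatase with a proteoglycan ectodomain that binds pleiotrophin and midkine. It was at 233 CPM in differentiating wFAPLs, from 111 UMIs in 15 cells, of which 12 held at least 1 UMI. It followed at 44.3 CPM in wAPC 1, 31.1 in wAPC 2 and 15.3 in wFAPLs, with 5.89 to 6.61 CPM in wAPC 3, wAPC 4 and wCAPs. Among brown clusters bAPC 4 held 83.5 CPM, bAPC 5 held 24.5, and the others 5.97 to 14.7. Without the cell with the most UMIs, which held 28 of the 111, differentiating wFAPLs were at 184 CPM. Mural cell markers summed to 3047 CPM in differentiating wFAPLs, with Myh11 at 2522 CPM and 6 of 7 markers at 10 CPM or more, against 113 CPM over all white precursors, and their part in the result was not tested.

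Galnt17 encodes a Golgi enzyme of the family that starts mucin-type O-glycans. It was at 499 CPM in wAPC 2 and 333 in wAPC 1, and lower in wFAPLs (239.7), wAPC 4 (226), wCAPs (201), wAPC 3 (179) and differentiating wFAPLs (138). Brown bAPC 5 held 359 CPM, bAPC 4 held 302 and bAPC 1 held 218, and bCAPs were lowest at 71.6.

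Between committed precursors and FAPLs, Ank3 and Nav3 stood apart in both depots, and the adhesion and channel genes mostly in 1. Ank3 was at 130 CPM in wCAPs and 17.7 in wFAPLs, and at 115 CPM in bCAPs and 13.1 in bFAPLs, a log2 ratio of 3.13 in brown cells (2.83 to 3.45). Nav3 was 5.58-fold higher in wCAPs than in wFAPLs and 2.77-fold higher in bCAPs than in bFAPLs. Opcml was 3.75-fold higher in wCAPs (log2 ratio 1.91), while its brown log2 ratio of 0.34 had an interval from -0.13 to 0.82. Kcnma1 was 3.92-fold lower in wCAPs than in wFAPLs and 1.92-fold lower in bCAPs than in bFAPLs, a brown log2 ratio of -0.94 that was 0.04 with labels carried over to all filtered precursors. Ptprz1 was 2.56-fold lower in wCAPs. Tenm4 was 2.05-fold higher in wCAPs and 2.14-fold lower in bCAPs, and Kcnip4 was 2.02-fold higher in wCAPs, with 5.85 CPM in bCAPs and 9.95 in bFAPLs.

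In all, 5 members were at least 2-fold higher and 2 lower in wCAPs, where 1.6% and 2.25% of 9199 genes, and 19.7% and 6.84% of those of at least 500 kb, were. Of 7 members with enough UMIs in brown cells, 2 were higher and 1 lower in bCAPs, where 2.01% and 1.86% of 9148 genes, and 21.8% and 2.52% of those of at least 500 kb, were. The brown count of lower members was 3 when scaled to other genes of at least 100 kb, with Galnt17 and Kcnma1 (-1.02 each) beside Tenm4 (-1.17), 3 after thinning to 10000 UMIs, and 2 under 4 other settings. The median log2 ratio of the members was 0.88 in white and 0.34 in brown cells, against 0.01 and 0.04 over all genes and 0.32 and 0.30 over genes of at least 500 kb. This contrast chose the members, so nothing is read from the counts. Scaled to the UMIs of other genes of at least 100 kb, whose share was 14.2% in wCAPs and 13.5% in wFAPLs, Tenm4 and Kcnip4 came just under 2-fold in white cells, at log2 ratios of 0.96 and 0.94.

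**Figure D2:**
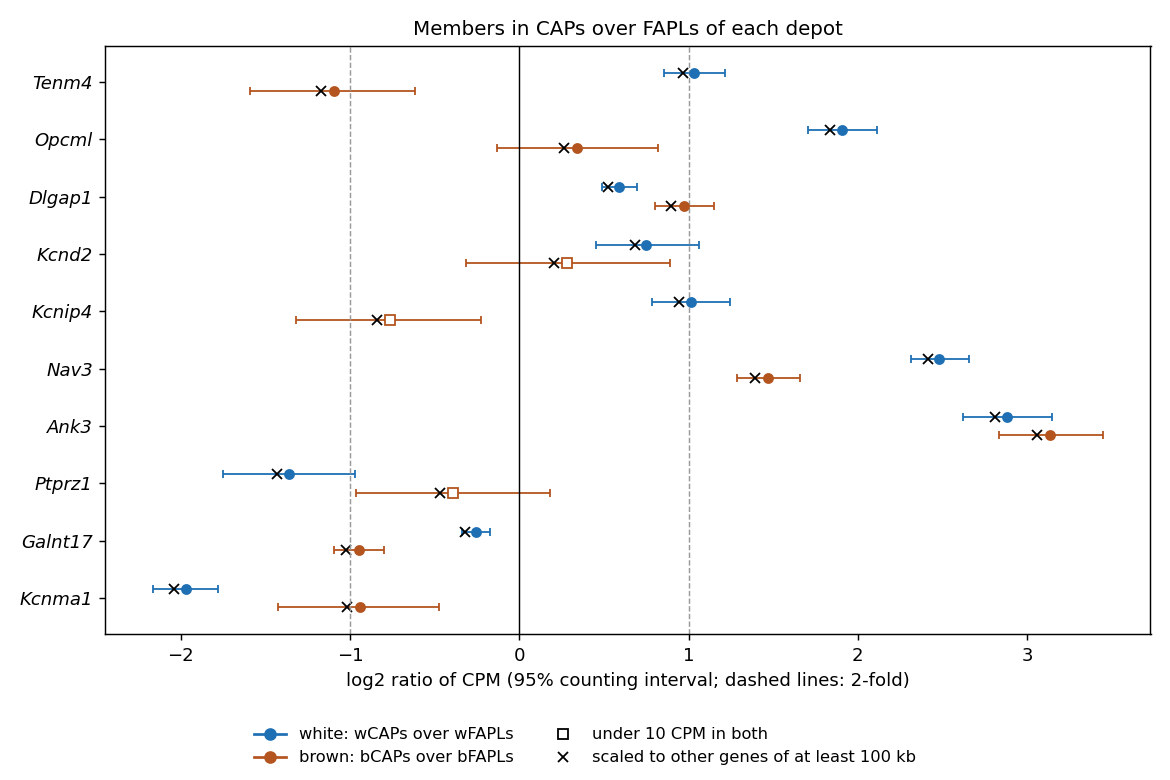
Log2 ratio of CPM in CAPs over FAPLs for each member, white in blue and brown in orange, with 95% counting intervals, and dashed lines at 2-fold. Crosses give the ratio scaled to other genes of at least 100 kb and open squares mark members under 10 CPM in both clusters. Ank3 and Nav3 lie to the right in both depots, and Tenm4 and Kcnip4 lie on opposite sides of 0.

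Between depots, 5 members were at least 2-fold higher in white than in brown precursors and none was lower. Kcnip4 was at 43.2 CPM in white and 8.60 in brown precursors, a 5.02-fold difference. Kcnma1 was at 24.2 and 7.05 CPM (3.43-fold), Opcml at 77.0 and 26.0 (2.96-fold), Kcnd2 at 19.6 and 7.97 (2.45-fold), and Tenm4 at 58.1 and 26.2 (2.22-fold). Galnt17 was at 274 and 173 CPM, Dlgap1 at 106 and 93.1, Nav3 at 149 and 164, Ptprz1 at 20.4 and 18.5, and Ank3 at 101 and 99.5. The 3 channel genes and both adhesion genes were thus the ones past 2-fold, and Ank3 (1.02-fold) and Nav3 (0.91-fold) were nearly level in these libraries.

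Of 9037 genes 1.11% were at least 2-fold higher in white precursors and 0.73% lower, and of 118 genes of at least 500 kb 7.63% and 2.54%. The median log2 ratio was 0.91 for the members, 0.04 for all genes and 0.23 for genes of at least 500 kb. Genes of at least 100 kb took 13.3% of white and 11.1% of brown UMIs, and Malat1, a nuclear RNA, was at 8181 and 6729 CPM; their part in the result was not tested. Scaled to the other genes of at least 100 kb, Kcnip4 (2.07), Kcnma1 (1.52), Opcml (1.31) and Kcnd2 (1.04) kept a log2 ratio over 1, and Tenm4 was at 0.89.

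The same comparison between like clusters, added after the data were seen, gave larger differences among committed precursors for the adhesion genes. Tenm4 was at 86.8 CPM in wCAPs and 6.70 in bCAPs (12.9-fold, log2 ratio 3.69, 3.31 to 4.11), Opcml at 112 and 11.1 (10.1-fold) and Kcnip4 at 52.9 and 5.85 (9.03-fold). Between wFAPLs and bFAPLs these were 2.96-fold, 3.41-fold and 2.64-fold, and Kcnma1 was 5.43-fold higher in wFAPLs. Ank3 differed by 1.13-fold between wCAPs and bCAPs and by 1.35-fold between wFAPLs and bFAPLs. In all, 7 of 9 members were higher in wCAPs than in bCAPs, where 2.18% of genes and 13.2% of those of at least 500 kb were, and 6 of 10 in wFAPLs than in bFAPLs, where 1.04% and 9.73% were. None was lower in either comparison, where 2.14% and 0.646% of genes, and 9.92% and 4.42% of those of at least 500 kb, were.

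Among cells called G2/M, 4 white members were at least 2-fold lower than in G1 cells, and none was higher. Dlgap1 was at 138 CPM in G1, 80.0 in S and 47.6 in G2/M cells of the white library, and at 120, 64.8 and 41.5 CPM in the brown library. Kcnma1 was at 32.1, 14.7 and 12.1 CPM in white cells, Tenm4 at 74.4, 40.3 and 31.0, and Kcnip4 at 51.4, 42.5 and 23.0. In brown cells Tenm4, Dlgap1 and Kcnip4 were past 2-fold. Brown Kcnma1 was 3.11-fold lower, at 9.31 CPM in G1 and 2.99 in G2/M cells, but was not counted because both were under 10 CPM. Ptprz1 went the other way in S cells, at 28.0 CPM against 18.6 in G1 and 18.9 in G2/M white cells, and at 22.4, 18.2 and 16.6 in brown cells. Nav3 was at 167 CPM in both G1 and G2/M brown cells.

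Of 9135 white genes 4.95% were at least 2-fold higher in G2/M and 0.657% lower, and of 9056 brown genes 4.9% and 0.431%. The median log2 ratio was -0.78 for the 10 white and -0.38 for the 8 brown members with enough UMIs, 0.00 over all genes, and -0.43 and -0.35 over genes of at least 500 kb, of which 12.6% and 8.04% were lower and 1.8% and 1.79% higher. Between S and G1 cells, a comparison added after the data were seen, 1 of 10 white members was lower (Kcnma1) and none higher, where 0.296% and 4.51% of genes were, and none of 8 brown members was past 2-fold, where 0.221% and 4.63% were. Scaled to the other genes of at least 100 kb, Dlgap1 was still lower, at a log2 ratio of -1.37 in white and -1.39 in brown cells. The clusters wAPC 3 and bAPC 3 held 50.4% and 60.2% of cells in G2/M, against 11.3% to 19.6% in the others.

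**Figure D3:**
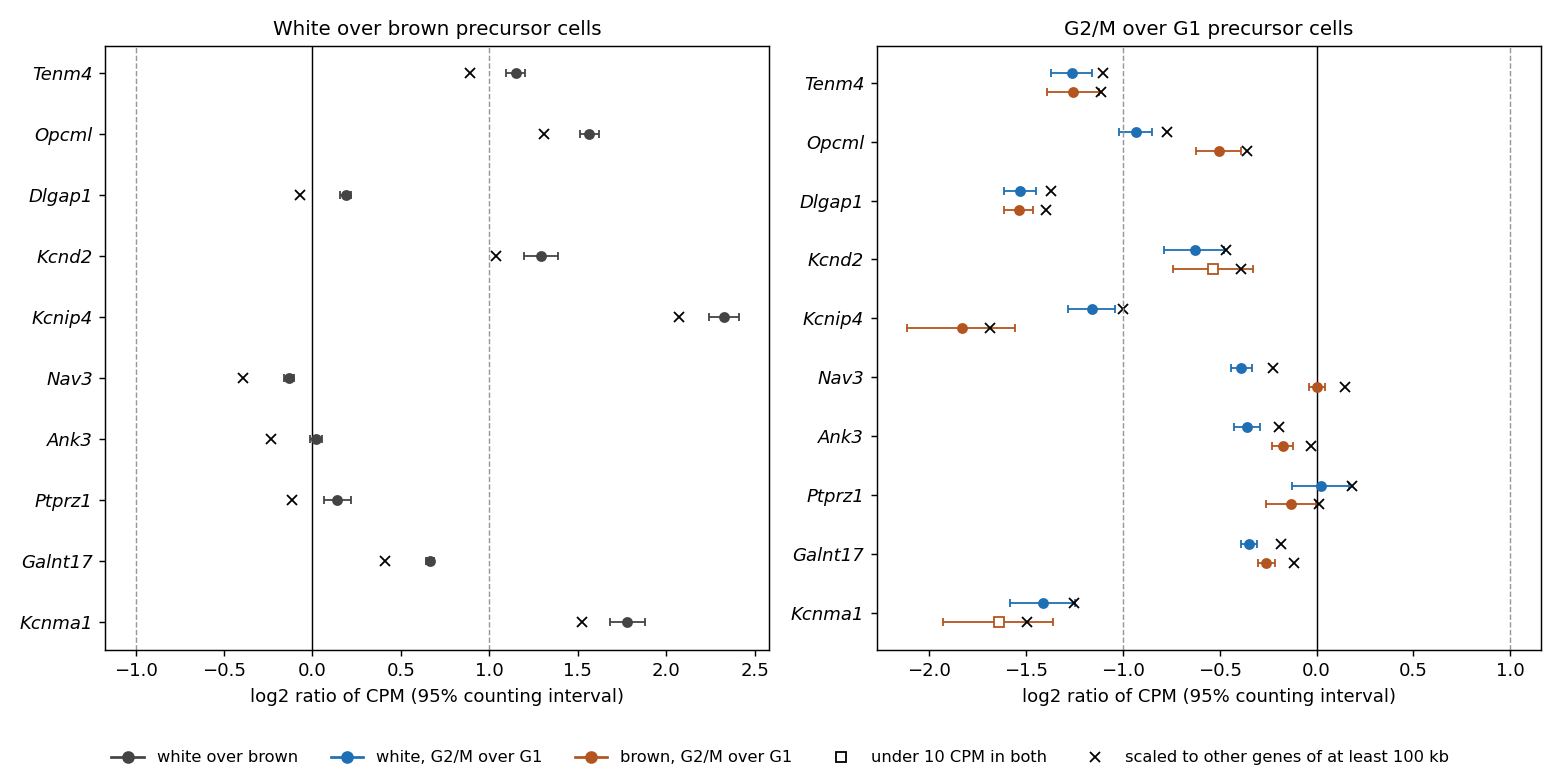
Log2 ratio of CPM for each member, left for all white over all brown precursors and right for G2/M over G1 precursors of each depot, with 95% counting intervals. Dashed lines mark 2-fold, crosses the ratio scaled to other genes of at least 100 kb, and open squares members under 10 CPM in both sums. Kcnip4, Kcnma1, Opcml, Kcnd2 and Tenm4 lie past 2-fold on the left, and Dlgap1, Tenm4, Kcnip4 and Kcnma1 lie lowest on the right.

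Glial cells, which held high levels of Sox10 and Cdh19 and almost none in precursors, did not show 1 direction for the members. Their glial markers summed to 3473 CPM in the white and 2829 CPM in the brown library, against 26.2 and 24.4 CPM in precursors. The same markers named these clusters, so high values of them were required by that choice. Ank3 was at 1406 CPM in white glial cells against 101 in white precursors (13.9-fold), and at 927 against 99.5 in the brown library (9.31-fold). Ptprz1 was at 245 against 20.4 CPM (12.0-fold) and at 224 against 18.5 (12.1-fold). Nav3 was at 664 against 149 and at 399 against 164 CPM. Galnt17 was at 498 against 274 and at 353 against 173 CPM, 1.82-fold and 2.05-fold.

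Tenm4 and Dlgap1 were lower in glial cells of both libraries, and Kcnd2 and Kcnip4 in the white library, since both were under 10 CPM in brown sums. Dlgap1 was at 19.2 against 106 CPM in the white and at 15.2 against 93.1 CPM in the brown library. Tenm4 had 1 UMI in white and 2 in brown glial cells, a ratio to precursors of 0.0157 in the white library (log2 ratio -5.99, -11.29 to -3.51). Kcnip4 had 0 UMIs in white glial cells, at least 15.7-fold lower than in precursors when 3 counts of the glial sum are taken as the limit, and 2 UMIs in brown ones. Kcnd2 had 1 and 0 UMIs. Kcnma1 had 7 and 12 UMIs, at 6.40 CPM against 24.2 in the white and 7.94 against 7.05 in the brown library. Opcml was at 91.4 against 77.0 CPM in white cells and at 68.2 against 26.0 CPM in brown cells. In the white library 30 of its 100 glial UMIs lay in 1 cell, and the level without it was 65.2 CPM, below that of precursors.

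In all, 3 members were at least 2-fold higher and 5 lower in white glial cells, where 13.4% and 12.7% of 9743 genes, and 36.4% and 33.3% of those of at least 500 kb, were. In the brown library 5 were higher and 2 lower of 7, where 13.3% and 11.5% of 9581 genes, and 35.4% and 34.6% of those of at least 500 kb, were. Scaled to the other genes of at least 100 kb, Nav3 (0.92) and Galnt17 (0.67) came under a log2 ratio of 1 in the brown library. The median log2 ratio over all genes was 0.14 in both libraries. Glial cells had a median of 20672 (white) and 19494.5 (brown) UMIs, and genes of at least 100 kb took 18.3% and 14.4% of their UMIs. The neuronal list summed to 829 CPM in white and 941 CPM in brown glial cells, against 71.3 and 72.4 CPM in precursors. Of its 10 markers only Gap43 (606 and 769 CPM) and Tubb3 (223 and 168 CPM) reached 10 CPM in glial cells, and Snap25, Syt1 and Rbfox3 were at 0 there. Over all precursors only Tubb3 did, at 59.2 and 65.9 CPM. Gap43 also did in wAPC 2 (20.6 CPM) and wAPC 3 (10.5 CPM), where the list summed to 75.2 and 66.1 CPM, within the 49.5 to 164 CPM of the other clusters. The part of neuronal markers in the members' levels was not tested.

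**Figure D4:**
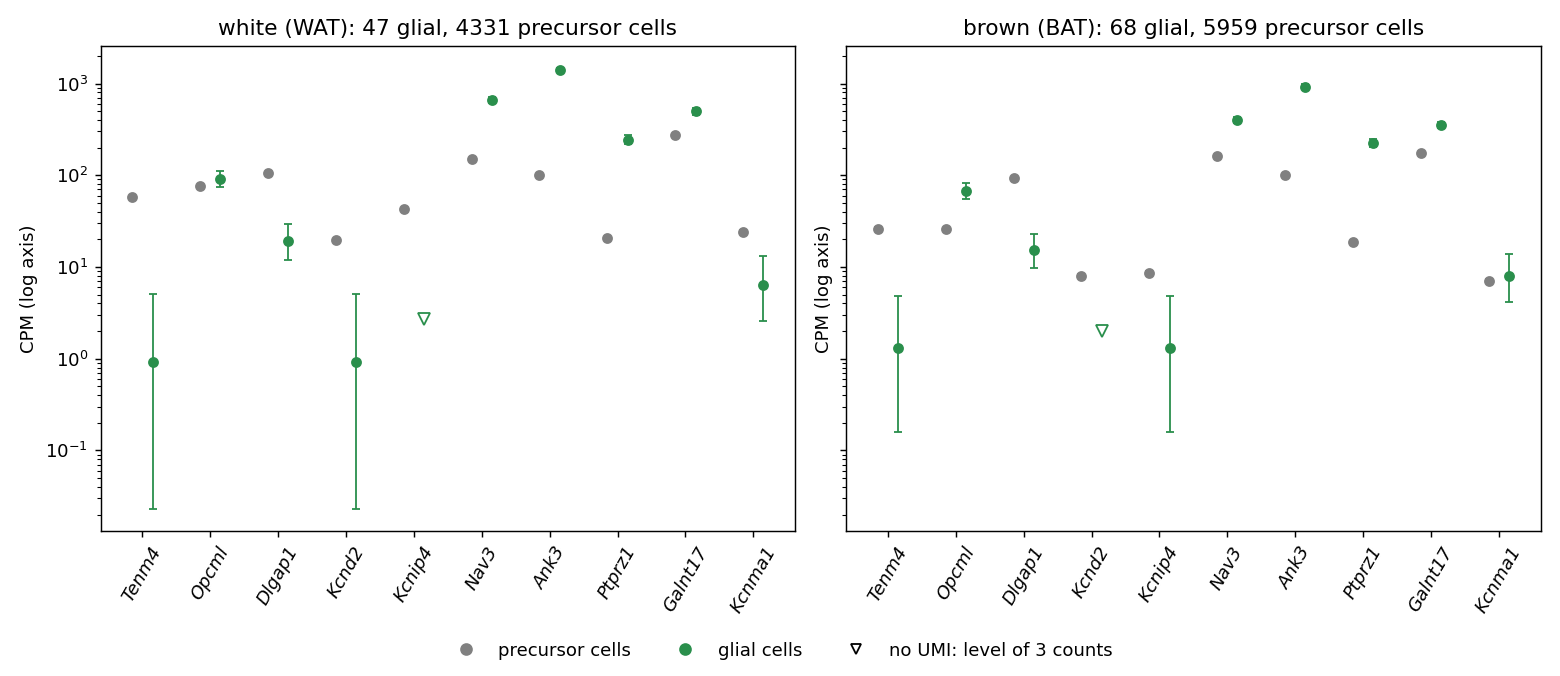
Level of each member in precursor cells (grey) and glial cells (green) of the white library on the left and the brown library on the right, in CPM on a log axis with 95% Poisson intervals. Triangles stand for sums without a UMI, drawn at the level of 3 counts. Ank3, Ptprz1 and Nav3 lie above the precursors in both libraries, and Tenm4, Dlgap1, Kcnd2 and Kcnip4 below.

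Members took a smaller share of UMIs in myeloid and myogenic cells than in all precursors of the library together, and a larger one in glial cells. Together the members took 0.0873% of the UMIs of white and 0.0624% of brown precursors, 0.293% and 0.200% of glial cells, 0.0114% and 0.00979% of myeloid cells and 0.0330% of brown myogenic cells. Their share in bFAPLs, 0.0307%, lay below that of the myogenic cells. In thinned myeloid cells, a UMI of Galnt17 was found in 0 of 29 white cells, which allows a share of up to 10.3%, and in 4 of 78 brown cells, against 74.3% and 59.4% of precursors. For Kcnd2, 0 of 29 and 0 of 78 myeloid cells held a UMI, which allows up to 10.3% and 3.85%, against 8.08% of white and 4.72% of brown precursors. These limits are 3 counts over the cells, and the Clopper-Pearson upper bounds are 11.9% and 4.62%. The white Kcnd2 share and the brown Kcnip4 share of 3.79% lay within both limits, and the white Kcnma1 share of 11.3% lay within the Clopper-Pearson bound, with 0 of 29 white myeloid cells holding a UMI. Tenm4 was found in 3 of 29 white and 5 of 78 brown myeloid cells, with upper bounds of 27.4% and 14.3%. Its shares of 26.1% of white and 14.1% of brown precursors lay within these bounds. The white Ptprz1 share of 11.7% also lay within its bound of 17.8%, from 1 of 29 myeloid cells.

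The UMIs of every member were spread very unevenly over cells. Of 4331 white precursors, 396 held at least 10 Dlgap1 UMIs and together 67.8% of all its UMIs, while 41.2% of cells held any. In the brown library 498 of 5959 cells held 62.4%. For Kcnip4 the 1% of cells with the most UMIs held 30.5% of white and 51.5% of brown UMIs. By this share Ank3 and Galnt17 were the most even, with 8.03% and 6.77% of white UMIs in the top 1% of cells, while the next measure gave another order. In cells thinned to 10000 UMIs, the variance over the mean (Fano factor, near 1 for pure counting) was 6.93 for Dlgap1, 6.91 for Kcnip4, 4.58 for Nav3, 4.34 for Opcml, 4.28 for Kcnd2, 4.02 for Kcnma1, 3.44 for Galnt17, 3.30 for Tenm4, 2.36 for Ank3 and 2.31 for Ptprz1 in white precursors.

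All 10 members were above 2, a limit set after the values were seen, in both libraries, as were 5.32% of 10406 white and 5.05% of 10360 brown genes. Among genes of at least 100 kb 16.1% and 13.1% were, so length went with this spread, and its part was not tested. Of 870 genes of a mean level like that of Dlgap1, 3 had a higher value in white cells, as had 1 of 902 in brown cells. The members were chosen for differing between clusters of these cells, which favours a high value, so nothing is read from these counts. Within wCAPs the value was 7.61 for Dlgap1 and 6.78 for Kcnip4, and within bAPC 1 it was 5.86 for Dlgap1. For Ptprz1 it was 1.05 within wCAPs, where its thinned mean was only 0.055 UMIs a cell. It was 2.06 within wAPC 1, 2.41 within bAPC 4 and 4.97 within the 15 differentiating wFAPLs, where Ptprz1 was higher. The part of the clusters in the spread was not tested. Since UMIs of 1 cell are not independent, the counting intervals given are narrower than the true error.

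**Figure D5:**
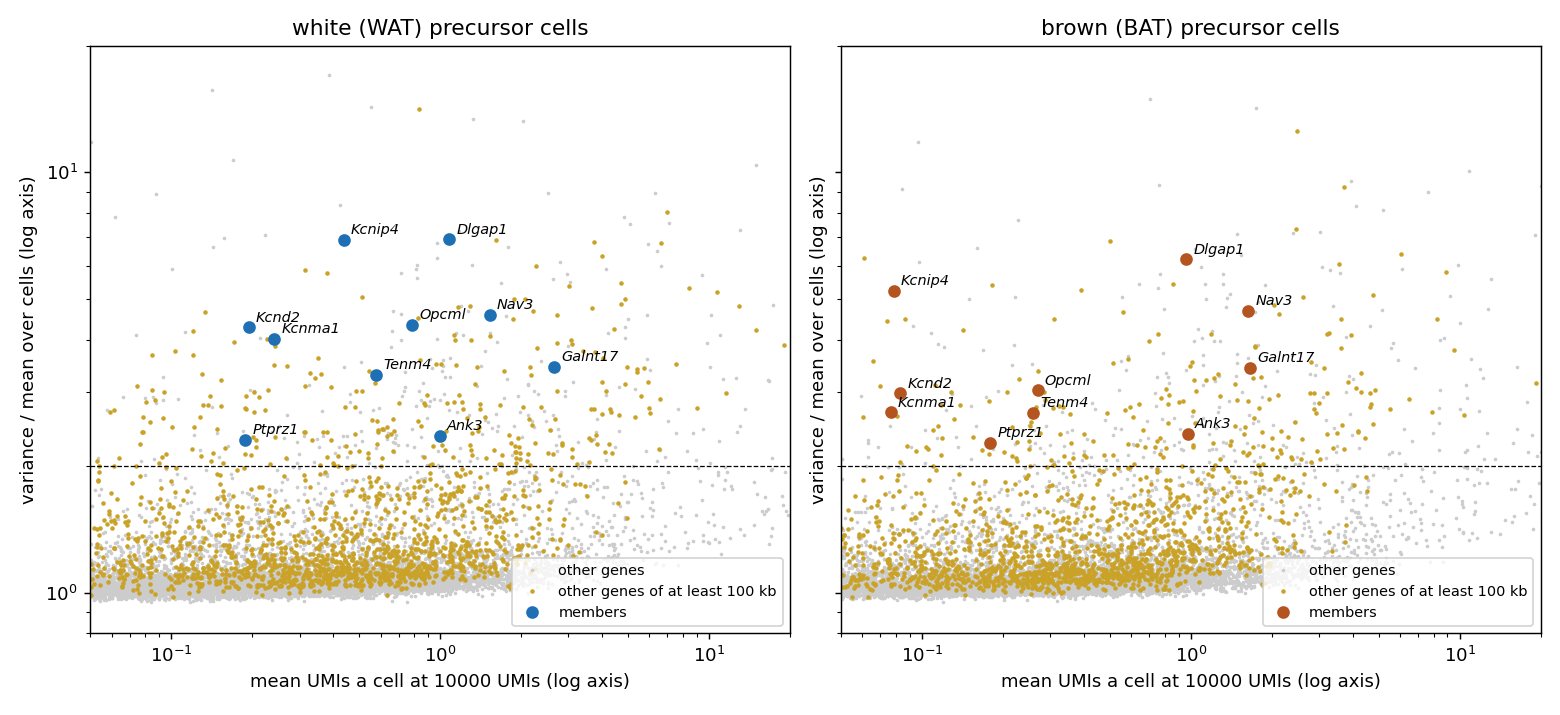
Variance over mean of UMIs across precursor cells thinned to 10000 UMIs, against the mean, on log axes, for white cells on the left and brown cells on the right. Each point is a gene with a mean of at least 0.05, gold for genes of at least 100 kb, the dashed line marks 2, and genes past 20 on either axis lie outside the plot. All 10 members lie above the line, with Dlgap1 at 6.93 in white and 6.22 in brown cells.

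Across the 14 clusters, the log2 levels of the members went together only in part. Of 45 pairs, 34 had a Pearson correlation over 0, with a median of 0.33, from -0.66 for Nav3 with Ptprz1 to 0.76 for Nav3 with Ank3. Within depots, Nav3 with Ptprz1 was at -0.88 over the white and 0.26 over the brown clusters. Nav3 with Ank3 was at 0.80 and 0.89. Clusters of 1 depot share a library, so these are descriptions. Over the thinned labelled cells, the median pair correlation was 0.02 in both libraries.

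The genes most like each member over the 14 clusters were sought among 10228 others. Taking the highest of so many correlations over only 14 clusters favours high values, so these are descriptions and none was tested. Nav3 was followed by Mccc1 (0.98), Nrg1 (0.97) and Snx5 (0.97), and Galnt17 by Bmpr1b (0.96), its family member Galnt18 (0.91) and Map1b (0.90). Ank3 was followed by Ptn (0.92), Ptges (0.92) and Fads2 (0.91), and Tenm4 by Lgals3 (0.94), Zfp397 (0.92) and Fbln2 (0.91). Opcml was followed by Nfxl1, Chrm3 and Jak1 (0.91 each). Dlgap1 was followed by Mfap1b, Klhl12 and Pip5k1b (0.91 to 0.92), and Ptprz1 by Ctps, Parva and Wdfy1 (0.90 to 0.92). The channel genes came out as Kcnd2 with Apba1, Cdon and Rnf213 (0.91 to 0.93), Kcnip4 with Nek1, Mtus1 and Nxpe4 (0.87 to 0.89), and Kcnma1 with Cnksr3, Aldh1a1 and Fut11 (0.87 to 0.93).

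Partner genes were read from 69 names in 9 lists. The channel partners had few UMIs. Kcnd1 was at 3.16 CPM in white and 3.81 in brown precursors, Kcnd3 at 1.48 and 1.26, Kcnip3 at 8.96 and 6.36, Kcnip1 at 0.37 and 0.46, and Kcnip2 at 0.70 and 0.51. The BK subunits Kcnmb1 and Kcnmb2 were at or under 0.147 CPM, and Kcnmb4 was at 4.58 and 7.70. The latrophilins that bind teneurins were detected throughout, with Adgrl1 at 39.0 and 39.8 CPM, Adgrl2 at 107 and 84.2, and Adgrl3 at 79.5 and 97.3. Ligands of Ptprz1 were abundant in precursors, with Ptn (pleiotrophin) at 2482 and 2448 CPM and Mdk (midkine) at 115 and 131.

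Of 33 partners with enough UMIs, 2 were at least 2-fold higher in wCAPs than in wFAPLs (Ptn, at 2759 and 505 CPM, and Galnt13, at 16.3 and 3.35) and 2 lower (the IgLON Ntm, at 1.86 and 23.0, and Galnt16, at 5.62 and 14.4). Of 32 in brown cells, 2 were higher in bCAPs (Ptn, at 1773 and 486 CPM, and the IgLON Negr1, at 12.9 and 6.24) and 2 lower (Galnt16, at 4.51 and 12.3, and Galnt18, at 29.1 and 82.4). Of 29 between depots, Nav2 (68.2 and 32.0 CPM) and Galnt13 (15.7 and 5.40) were higher in white precursors and none was lower. Over all genes, 1.6% were higher and 2.25% lower in wCAPs, and 2.01% and 1.86% in bCAPs. Between depots 1.11% of all genes were higher and 0.73% lower in white precursors.

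In glial cells the partners differed more often. Of 35 in the white library 16 were at least 2-fold higher and 10 lower than in precursors, and of 33 in the brown library 11 and 7, beside the shares of all genes given above for glial cells. The teneurin Tenm3 was at 4408 against 198 CPM in the white and 2904 against 203 in the brown library, while Tenm4 was near 0 there. Adgrl3 was at 1223 against 79.5 and 806 against 97.3 CPM, and the navigator Nav2 at 1046 against 68.2 and 766 against 32.0. All 4 listed IgLONs beside Opcml were higher in white glial cells, with Ntm at 540 against 3.78 CPM, and 3 of 3 tested in brown ones. Ptn and Mdk, the ligands of Ptprz1, were lower where the receptor was high, at 378 and 9.14 CPM in white glial cells and 519 and 7.94 in brown ones. These non-members were named after their values were seen, save the direct partners.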

How the data were processed

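The authors deposited, per library, a matrix of UMI counts per gene and cell made with Cell Ranger 7.0.1 on mm10, per the submitters' processing notes; with that version's default settings intronic reads count, and the matrices do not separate them from exonic ones. UMI counts were used as deposited. Cells within the study's stated limits (3900 to 7700 genes, 6000 to 60000 UMIs, 1.7% to 5% mitochondrial) were clustered with Seurat 5.3.0 (2000 variable genes, 10 components, resolution 0.5) and named from marker lists. Phases were called by Seurat. No doublet caller was applied beyond the upper limits, and a limit of 40000 UMIs was tried. Precursor clusters are the study's own labels for 1999 cells per depot, which were derived from the same counts. UMIs were summed over cells and divided by the sum's total (CPM). Exact Poisson, conditional binomial (ratios) and Clopper-Pearson (shares) intervals at 95% cover counting error only. Spans come from GENCODE vM21, which matched 32158 of 32285 gene IDs.

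With 1 library per depot there is no replicate, and no test, p-value or standard error was computed. Scripts were tested on simulated counts. Alternatives were other scalings, thinning to 10000 UMIs, means over cells, G1 cells only, carried labels (15 nearest neighbours), and, chosen after seeing the data, leaving out the cells with the most UMIs of a gene. All 10 members were to be named in every cluster; of 69 partner genes, those at 10 CPM or more and 2-fold apart between CAPs and FAPLs, and direct partners. For each member the 3 genes of highest Pearson correlation of log2(CPM + 1) over the clusters were named. The members and lists were chosen with earlier results of these data known. The study named Nav3 and Ptprz1 as marks of bAPC 1 and bAPC 4 from these cells. It also named Ank3, and the partner Ptn, as driver genes of wCAPs that were differentially expressed there.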

Additional observations from a re-analysis of the deposited data

Results flagged for a closer look

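Tenm4 and Kcnip4 went in opposite directions between committed precursors and FAPLs in the 2 depots. For Tenm4 the log2 ratio of CAPs over FAPLs was 1.03 in the white library (0.86 to 1.21) and -1.10 in the brown library (-1.59 to -0.61). For Kcnip4 it was 1.01 (0.79 to 1.24) and -0.77 (-1.32 to -0.22), with both brown levels under 10 CPM. Each depot is 1 library, so the difference was not tested, and clusters of the same kind in the depots were labelled separately.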

How the results depend on the processing

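No paired analysis was possible because each depot is 1 library, so no replicate could be left out either. Scaled to other genes of at least 100 kb, 3 members in place of 5 were higher in wCAPs than in wFAPLs, 3 in place of 1 lower in bCAPs than in bFAPLs, and 3 in place of 5 higher in brown glial cells. The members lower in bCAPs were 3 in cells thinned to 10000 UMIs and 2 each with the mean over cells, with cells under 40000 UMIs, and, both added after the data were seen, without the cell or the 1% of cells with the most UMIs of the gene. Without a minimum CPM 4 in place of 2 were lower in brown glial cells. The other 135 recomputed counts lay within 1.5 times the main count. Of 593 recomputed single ratios 456 stayed within the counting interval of the main value, 137 moved, and no ratio past 2-fold changed sign, while 24 under 2-fold did, among them Kcnma1 in bCAPs over bFAPLs (-0.94, and 0.04 with carried labels); the causes were not tested. Members near 10 CPM, and glial sums of a few UMIs, are limited by depth.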
